A study of Orbilia oligospora with 9 samples.

Results

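MDV1, FIS1 and MTP18 are genes of the machinery that divides mitochondria, and their transcript levels were followed through an RNA-seq series on the nematode-trapping fungus Orbilia oligospora (also known as Arthrobotrys oligospora). They are 3 of the 12901 loci in the deposited table and were chosen by their locus tags. All 3 passed the filter on low values, which 10318 loci passed. Hyphae of strain ATCC 24927 had been grown for 5 days at 28 °C on TYGA, an agar with tryptone, yeast extract and glucose, and all libraries carry the same treatment tag for aerial hyphae. The libraries form 3 groups of 3: WT, one labelled Aomdv1 mutant and one labelled Aovps1 mutant. The sample labels give the mutant genotypes as knockdowns of Mdv1 and of Vps1, whereas the design of the series calls them ΔAomdv1 and ΔAovps1. The labels do not give the number of independent transformants behind each mutant. Replicates are called biological without mention of separate plates, so each p-value reflects only how much these samples varied, which may be technical.

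A mitochondrion divides when a dynamin-type GTPase assembles around it and constricts the outer membrane. In the yeast Saccharomyces cerevisiae the dynamin Dnm1 is brought to the surface by the adaptor Mdv1, a protein with WD repeats that binds the tail-anchored outer membrane protein Fis1. MTP18 (also MTFP1) is a protein of the inner membrane, known from human cells as a mitochondrial fission process protein, so it is an adaptor only in the loose sense of belonging to the same process. Vps1, the dynamin-related protein of the second mutant, is known in S. cerevisiae for vacuolar protein sorting and for the division of peroxisomes. The series asks what the loss of Mdv1 or Vps1 does to mitochondrial division, spore formation, trap formation and energy metabolism in this fungus.

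The annotation in the table names each gene with a different degree of detail. MDV1 (AOL_s00097g206) lies on scaffold NW_011645654.1 from 709346 to 711512 on the minus strand of assembly AOL24927 1.0, and its closest Swiss-Prot entry is mitochondrial division protein 1 of Aspergillus fumigatus. Its Pfam match, the WD repeat, occurs at 94 loci, and its KEGG ortholog name is also given to AOL_s00176g26, a locus with a cupin-like domain at 0.5 to 3.53 FPKM (fragments scaled to gene length and library size). FIS1 (AOL_s00109g118, NW_011645666.1, 396071 to 396917, minus strand) is the single locus with the Fis1 C-terminal repeat domain. MTP18 (AOL_s00079g30, NW_011645636.1, 71919 to 72926, minus strand) is the single locus with the MTP18 domain of Pfam and has no Swiss-Prot hit. The gene spans, introns included, are 2167 bp for MDV1, 847 bp for FIS1 and 1008 bp for MTP18. No other annotated locus overlaps any of them.

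Some properties of the libraries bear on these genes. The depth estimated from the smallest steps of the FPKM values was 15900000 to 19300000 fragments per library. At that depth the estimate for MDV1 was 2841 to 6083 fragments per library, for FIS1 942 to 2592, and for MTP18 230 to 498 in WT against 894 to 1695 in the mutants, so counting error was at most 6.6% of any value. The libraries labelled Aovps1 mutant correlated with each other across loci at 0.987 to 0.994 on the log2 scale, the WT libraries at 0.928 to 0.986 and those labelled Aomdv1 mutant at 0.903 to 0.974. WT library 3 and Aomdv1 library 3 departed from the rest of their groups by gene span. In Aomdv1 library 3 the median deviation from the other libraries of its label went from 0.331 (log2) for the shortest of 5 classes of genes by span to -0.647 for the longest. In WT library 3 it went from 0.478 to -0.117. The other libraries of these groups deviated by -0.325 to 0.396, each measured against a mean that includes library 3, and the Aovps1 libraries stayed near 0. FIS1 and MTP18 lie in class 2 from the short end, where these deviations were 0.195 and 0.424, and MDV1 in class 4, where they were -0.307 and 0.225. The words searched for hyphal markers matched 28 loci, of which 27 reached 1 FPKM, with a sum of 7230 to 13800 FPKM. Some of these matched by name only, such as a beta-hexosaminidase and cofilins. The largest part of the sum was the Woronin body gene AOL_s00112g56, with means of 7450, 6320 and 9850 FPKM in WT and under the Aomdv1 and Aovps1 labels. The 7 conidial marker loci summed to 201 to 285 FPKM in WT, 130 to 160 under the Aomdv1 label and 96.8 to 119 under the Aovps1 label. Most of the difference between WT and the Aovps1 label lay in the outer spore wall locus AOL_s00076g14, with means of 139, 73.2 and 22.3 FPKM. The 2 loci similar to CON13, abaA and wetA had higher means under the Aovps1 label than in WT, and no group mean of theirs was above 7.15 FPKM. In such bulk samples fewer cells of a kind and less RNA per cell cannot be told apart, and the part of conidial cells in the values below was not tested.

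**Figure D1:**
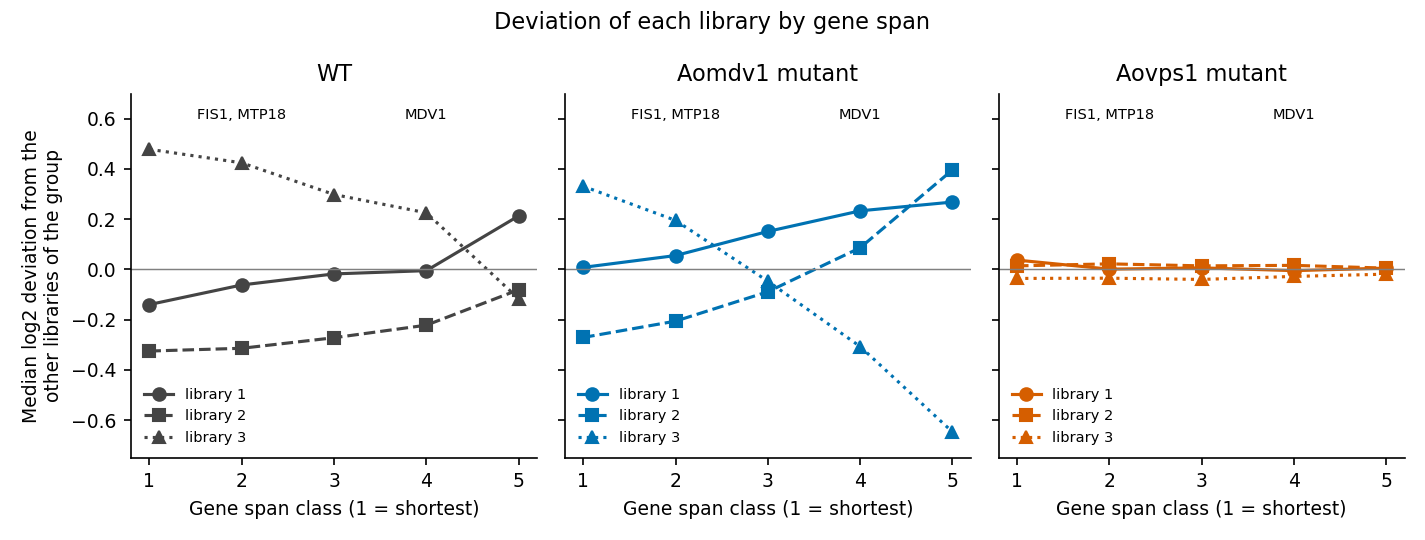
Median log2 deviation of each library from the other libraries of its group (y axis) for 5 equal classes of loci ordered by gene span (x axis), with the classes of FIS1, MTP18 and MDV1 marked. The Aovps1 libraries stay near 0, while Aomdv1 library 3 falls from 0.331 to -0.647.

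MTP18 transcripts were several times higher in both mutants than in WT, whereas the groups overlapped for MDV1 and FIS1. MDV1, the adaptor, had 133, 116 and 114 FPKM in the 3 WT libraries. The libraries labelled Aomdv1 mutant had 127, 118 and 82.5 FPKM. Those labelled Aovps1 mutant had 117, 149 and 105 FPKM. The groups overlapped in every comparison, and the lowest value of all 9 belonged to Aomdv1 library 3. The targeted gene was thus still transcribed at 109 ± 23.5 FPKM (SD, n = 3) in the libraries labelled as its own mutant, against 121 ± 10.5 in WT and 123 ± 22.6 in the other mutant. A value per gene does not show which stretch of the gene its fragments come from, so these data do not tell whether the transcript is whole.

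Between the libraries labelled Aomdv1 mutant and WT, the log2 fold change of MDV1 was -0.17 on the log2(FPKM + 1) scale (95% interval -0.78 to 0.44, adjusted p = 0.768, limma). It was -0.33 after median-ratio scaling (adjusted p = 0.492) and -0.38 after quantile scaling (adjusted p = 0.44). Under the Aovps1 label it was 0.01 (interval -0.59 to 0.62, adjusted p = 0.979), and -0.35 after median-ratio scaling. The intervals leave room for a decrease of up to 0.78 under the Aomdv1 label, and they do not show equal levels. Without Aomdv1 library 3 the first difference was 0.02 (adjusted p = 0.977). All later mentions of the mutants therefore go by the labels of the libraries.

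FIS1, the anchor in the outer membrane, had 127, 118 and 64.8 FPKM in the WT libraries. Its values in the Aomdv1 libraries were 119, 180 and 113 FPKM. The Aovps1 libraries had 145, 104 and 123 FPKM. WT library 3 was the lowest and Aomdv1 library 2 the highest of the 9, and the groups overlapped in every comparison. The means were 103 ± 33.7, 137 ± 36.9 and 124 ± 20.8 FPKM (SD, n = 3 each). The log2 fold change against WT was 0.43 under the Aomdv1 label (interval -0.31 to 1.17, adjusted p = 0.505, limma) and 0.31 under the Aovps1 label (interval -0.43 to 1.05, adjusted p = 0.568). Both differences rested on WT library 3: without it they were 0.13 (adjusted p = 0.808) and 0.01 (adjusted p = 0.991). FIS1 thus varied more among the WT libraries than MDV1 did, with coefficients of variation of 32.6% and 8.68%.

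MTP18, the inner membrane protein of the fission process, had 20.8, 12.7 and 28.8 FPKM in the WT libraries. The Aomdv1 libraries had 93.3, 65 and 55.8 FPKM. The Aovps1 libraries had 91, 88.7 and 87.2 FPKM, close to each other. Each of the 6 mutant libraries lay above each WT library, and the lowest mutant value, in Aomdv1 library 3, was still well above the highest WT value. The mean was 20.8 ± 8.03 FPKM in WT, 71.4 ± 19.5 under the Aomdv1 label and 88.9 ± 1.95 under the Aovps1 label (SD, n = 3 each). The spread under the Aovps1 label, a coefficient of variation of 2.19%, was smaller than in WT (38.6%) and under the Aomdv1 label (27.4%).

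**Figure D2:**
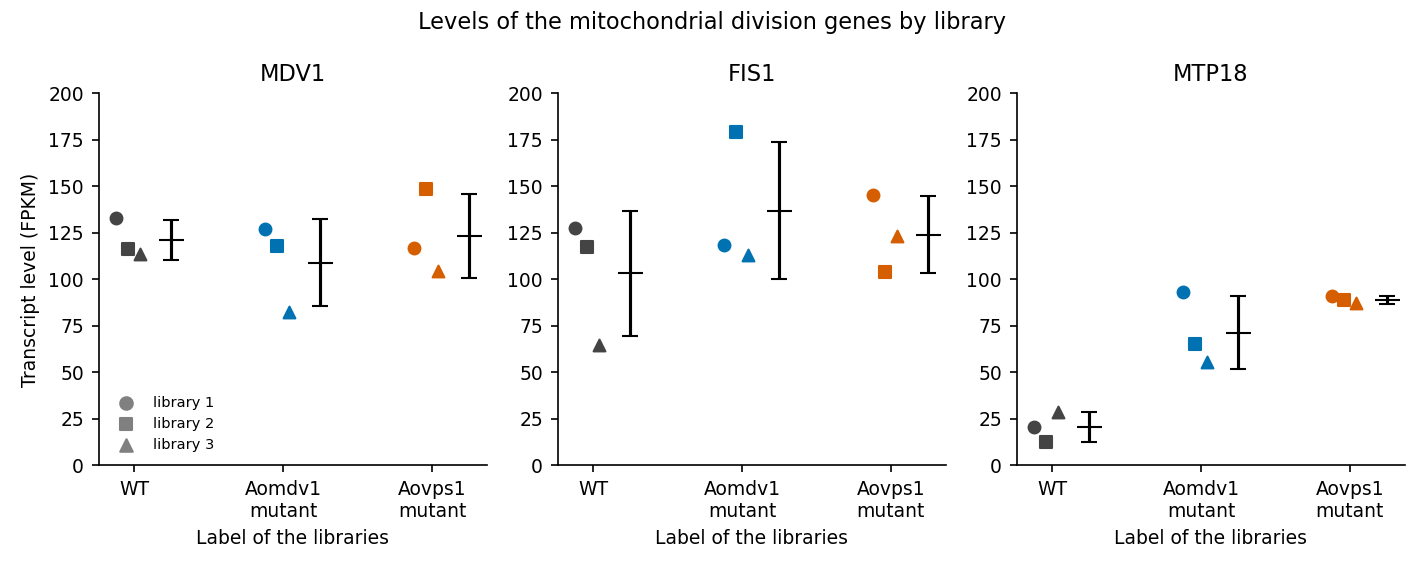
Transcript level in FPKM (y axis) of MDV1, FIS1 and MTP18 in each of the 9 libraries, grouped by label (x axis), with the mean and SD of each group (n = 3) beside the points. MTP18 lies between 12.7 and 28.8 in WT and between 55.8 and 93.3 in the mutants, while the groups overlap for MDV1 and FIS1.

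MTP18 rose by 1.77 on the log2 scale under the Aomdv1 label (SE 0.34, interval 1.01 to 2.52, adjusted p = 0.00841, limma), which is 3.41-fold. It was the 1 of the 3 genes past the threshold, an adjusted p of 0.05, in a comparison in which 9.84% of the 10318 loci tested were called, 5.62% higher and 4.22% lower. It was also the 1 gene of the 3 whose groups did not overlap, as was the case for 22.1% of all loci (13.5% higher and 8.56% lower). Under the Aovps1 label MTP18 rose by 2.12 (SE 0.34, interval 1.36 to 2.87, adjusted p = 0.00297), which is 4.33-fold. In that comparison 13.8% of all loci tested were called, 8.61% higher and 5.21% lower, and the groups did not overlap for 46% (33% higher and 13% lower). By size of the rise it ranked 364 among the 10318 loci under the Aomdv1 label and 264 under the Aovps1 label. Both comparisons use the same WT libraries, so they are not independent of each other.

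The direction of the MTP18 difference was the same under every scaling tried. The median log2 fold change of all loci was 0.08 under the Aomdv1 label and 0.30 under the Aovps1 label, and median-ratio scaling moved these medians to -0.06 and -0.01, and that between the mutants from 0.16 to -0.009. MTP18 then rose by 1.61 (adjusted p = 0.00566) and by 1.76 (adjusted p = 0.00336). With the libraries centred within classes of gene span the rises were 1.53 (adjusted p = 0.00739) and 1.81 (adjusted p = 0.00289). Without WT library 3 they were 2.03 and 2.38, and without Aomdv1 library 3 the first was 1.93. The call under the Aomdv1 label was lost in a fit of those 2 groups alone (adjusted p = 0.0532), in which the estimate itself did not move.

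The libraries of the mutants were also compared with each other. MTP18 was 0.35 higher on the log2 scale under the Aovps1 label than under the Aomdv1 label (interval -0.41 to 1.10, adjusted p = 0.695, limma). The groups overlapped, since Aomdv1 library 1 had the highest value of all 9. For MDV1 the difference was 0.18 (interval -0.42 to 0.79, adjusted p = 0.809) and for FIS1 -0.12 (interval -0.86 to 0.62, adjusted p = 0.908). With limma 0 of the 3 genes were called and 0% of all loci, while 978 loci had an unadjusted p under 0.05. The groups did not overlap for 0 of the 3 genes and for 23.5% of all loci (17.4% higher and 6.1% lower). Differences of 1.10 for MTP18 remain within the interval, so the comparison does not show that both mutants have the same level.

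Placed among all transcripts of its library, MTP18 stood at percentile 57.4 to 69.5 in WT, at 80.5 to 86 under the Aomdv1 label and at 85.5 to 85.6 under the Aovps1 label. MDV1 kept to percentiles 85.2 to 91.4 and FIS1 to 82.7 to 92.5 over the 9 libraries. FPKM is a value per gene length, so the levels of the genes can be set against each other within the limit that gene spans stand in for transcript lengths. MTP18 was the lowest of the 3 in all 9 libraries. MDV1 exceeded FIS1 in 4 libraries and FIS1 exceeded MDV1 in 5, so the order of these neighbours is not set beyond their spread.

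Ratios within a library do not depend on a single scaling factor of that library, but deviations by gene span need not cancel in them. In Aomdv1 library 3 the median deviation was 0.195 in the span class of MTP18 and -0.307 in that of MDV1. In WT library 3 these were 0.424 and 0.225. The ratio of MTP18 to MDV1 was 0.156, 0.11 and 0.253 in the WT libraries, 0.735, 0.552 and 0.676 under the Aomdv1 label, and 0.779, 0.597 and 0.832 under the Aovps1 label. Relative to the adaptor, MTP18 therefore stood higher in all 6 mutant libraries than in any WT library. The mean log2 ratio differed from WT by 2.00 under the Aomdv1 label and by 2.16 under the Aovps1 label. In a two-sided exact permutation test of 3 against 3 libraries both gave p = 0.1, the smallest p that this design allows, and 0.24 after Benjamini-Hochberg adjustment over the 12 ratio tests. The ratio of MTP18 to the dynamin gene DNM1 had a mean of 0.377 ± 0.159 in WT (SD, n = 3 in each group). It was 1.38 ± 0.104 under the Aomdv1 label and 1.403 ± 0.267 under the Aovps1 label. Neither mutant overlapped with WT (exact permutation p = 0.1 each). The ratios reuse the MTP18 values above, and MDV1 and DNM1 overlapped between the groups. They are therefore no separate support for the rise of MTP18.

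The ratio of MTP18 to FIS1 was 0.163, 0.108 and 0.444 in WT. In the Aomdv1 libraries it was 0.787, 0.362 and 0.494, and the groups overlapped because of WT library 3 (difference 1.39, exact permutation p = 0.2). In the Aovps1 libraries it was 0.626, 0.854 and 0.708, above every WT library (difference 1.86, exact permutation p = 0.1). The ratio of the anchor to the adaptor, FIS1 over MDV1, was 0.845 ± 0.241 in WT, 1.28 ± 0.306 under the Aomdv1 label and 1.04 ± 0.297 under the Aovps1 label. These groups overlapped, with exact permutation p values of 0.3 and 0.5 against WT. Between the mutants the 4 ratios gave exact permutation p values of 0.3 to 1.

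**Figure D3:**
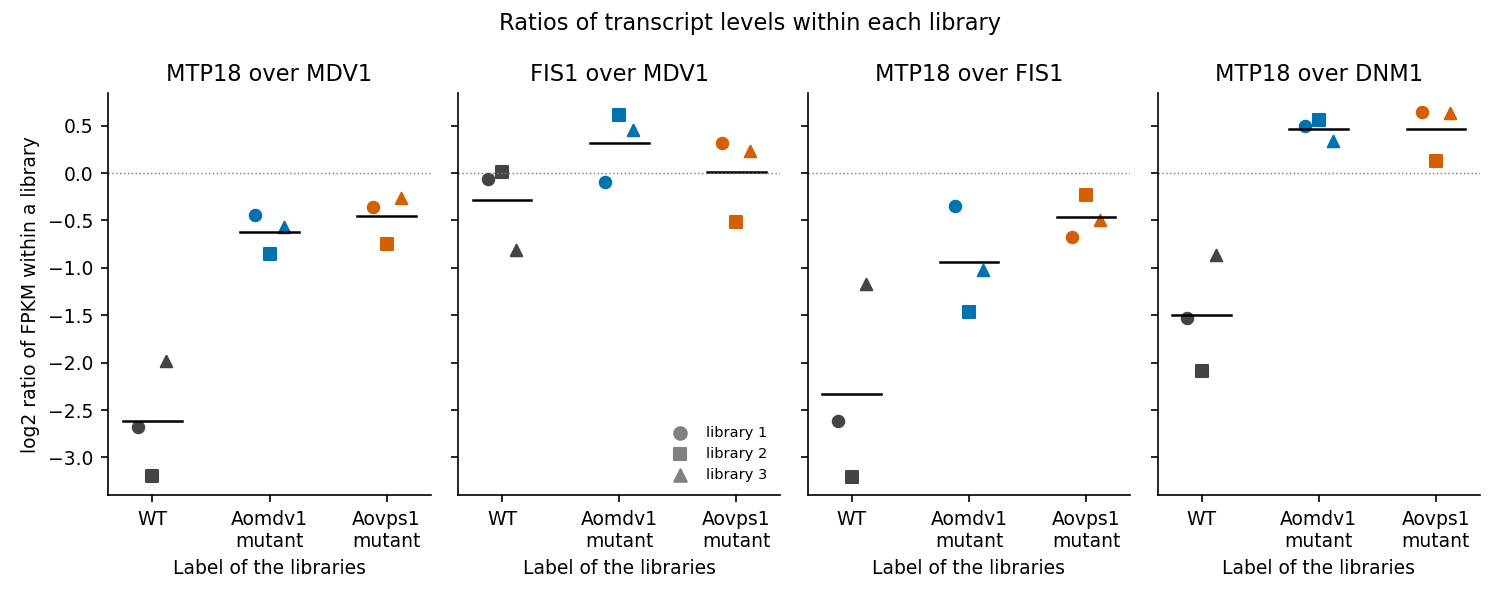
Log2 ratio of the FPKM values of each pair of genes within a library (y axis), by label of the library (x axis), with lines at the group means. MTP18 over MDV1 and MTP18 over DNM1 lie higher in the 6 mutant libraries than in the 3 WT libraries, and FIS1 over MDV1 overlaps between all groups.

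The rise of MTP18 was set beside the other genes of mitochondrial division, fusion and membrane organisation that the annotation names. The words searched matched 40 further loci, of which 34 were tested. Under the Aomdv1 label 0 of the 34 were called by limma (2356 of all loci had an unadjusted p under 0.05), 6 lay above and 2 below WT without overlap, and their median log2 fold change was 0.10 against 0.08 for all loci. Of all loci, 9.84% were called there, and 13.5% lay above and 8.56% below WT without overlap. Under the Aovps1 label 1 was called, lower, with 10 above and 4 below WT without overlap and a median of 0.19 against 0.30. In that comparison 13.8% of all loci were called, and 33% lay above and 13% below WT without overlap. The same shares of all loci stand beside the counts of the smaller groups of partners below. The number called under the Aovps1 label depended on single libraries and on the fit. It was 9 without Aomdv1 library 3, 5 without WT library 3 and 8 in a fit of the 2 groups alone. It was 0 without WT library 1 or 2, Aomdv1 library 1 or any Aovps1 library. Calls over all loci moved as well, to 2580 of 10205 without Aomdv1 library 3 and 2122 of 10066 without WT library 3. In the fit of the 2 groups they were 2483 of 10318. They were 839 of 10162 and 586 of 10158 without WT library 1 and 2, and 1343 of 10260 without Aomdv1 library 1. Without 1 Aovps1 library they were 626 to 704. Whether the partners moved beyond all loci was not tested. Under the Aomdv1 label 4 partners were called without WT library 3 (1392 of 10066 loci) and 2 without Aomdv1 library 2 (874 of 10247 loci). Each comparison was refitted in 9 settings that leave out 1 library and in 9 others. For partners named below but not called in the main fit, only the settings that called them are given. All other settings left them uncalled.

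Among the dynamins, DNM1 (AOL_s00078g290), the scission GTPase that Mdv1 recruits in yeast, had 60, 54.2 and 52.5 FPKM in WT, 66.1, 44.3 and 44 under the Aomdv1 label and 58.2, 81 and 56.3 under the Aovps1 label. Its log2 fold changes were -0.13 (adjusted p = 0.831) and 0.21 (adjusted p = 0.659), and the groups overlapped. VPS1 (AOL_s00007g394) had 105, 72.7 and 83.1 FPKM in WT, 41.2, 55 and 35.7 under the Aomdv1 label and 44.3, 22.6 and 46.9 under the Aovps1 label. It lay below WT in all 6 mutant libraries and was the 1 partner called, with a fall of 1.23 on the log2 scale under the Aovps1 label (adjusted p = 0.0421, limma). Under the Aomdv1 label the difference was -0.97 (adjusted p = 0.117). The VPS1 means were 37.9 FPKM under the Aovps1 label and 44 FPKM under the Aomdv1 label, and these groups overlapped. Their log2 difference was -0.26 (interval -1.03 to 0.52, adjusted p = 0.79, limma). A lower VPS1 level than in WT was thus not particular to the libraries labelled as its own mutant. The call of VPS1 under the Aovps1 label was lost without any 1 of the 6 libraries compared, where the change was -1.41 to -0.90 (adjusted p 0.0508 to 0.159). It was also lost without Aomdv1 library 1 (-1.23, adjusted p = 0.0559), in the fit with a replicate block (-1.23, adjusted p = 0.0653) and with all libraries scaled to equal sums (-1.17, adjusted p = 0.0617). Of the 9 other settings that leave out no library, 7 kept the call. The fall was larger with median-ratio scaling (-1.59, adjusted p = 0.0151), quantile scaling (-1.54, adjusted p = 0.0154) and centring by gene span (-1.67, adjusted p = 0.00755).

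The fusion genes had a median log2 fold change of 0.13 under the Aomdv1 label and 0.17 under the Aovps1 label, with 0 of 3 called in either. FZO1, the outer membrane fusion GTPase, was at -0.74 and -0.35, and MGM1, its inner membrane counterpart, at 0.13 and 0.17. UGO1, which links them in yeast, was at 0.45 and 0.37, with all mutant libraries above WT. FZO1 had its lowest values in WT library 3 (55 FPKM) and Aomdv1 library 3 (24 FPKM), the libraries that depart by gene span.

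Of the genes for proteolysis and lipid transfer at the inner membrane, where MTP18 also acts, 0 of 5 were called. PCP1, the rhomboid protease that cleaves Mgm1 in yeast, came closest: it had 28.1 to 36.8 FPKM in WT, 44.8 to 82.2 under the Aomdv1 label and 54 to 76.8 under the Aovps1 label. These groups did not overlap with WT, and its log2 fold changes were 0.91 (adjusted p = 0.098) and 0.94 (adjusted p = 0.0701). YME1, an inner membrane AAA protease, had 51.6, 42.3 and 34.8 FPKM in WT, 77.5, 70.4 and 19.8 under the Aomdv1 label and 87.8, 88.3 and 89.1 under the Aovps1 label. Aomdv1 library 3 lay below WT and the other Aomdv1 libraries above it. The log2 fold changes of YME1 were 0.17 (adjusted p = 0.871) and 1.04 (adjusted p = 0.159). Under the Aovps1 label the fit of the 2 groups alone called YME1 and PCP1 (adjusted p = 0.0145 and 0.0272). Both were also called there without Aomdv1 library 3 (adjusted p = 0.0097 and 0.0248). With equal sums PCP1 was called under the Aovps1 label as well (0.99, adjusted p = 0.0416). OMA1, UPS1 and UPS2 had log2 fold changes from -0.57 to 0.37.

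The genes for cristae and for the prohibitin ring of the inner membrane had medians of 0.55 under the Aomdv1 label and 0.39 under the Aovps1 label, and 0 of 6 were called in either. MIC19, a subunit of the MICOS complex at cristae junctions, had 69.4 to 119 FPKM in WT, 140 to 383 under the Aomdv1 label and 169 to 185 under the Aovps1 label. Its log2 fold changes were 1.27 (adjusted p = 0.0587) and 0.94 (adjusted p = 0.119). PHB2, a prohibitin subunit, was at 1.07 (adjusted p = 0.0564) and 0.77 (adjusted p = 0.126), and PHB1 at 0.92 and 0.69. Under the Aomdv1 label MIC19 was called with a replicate block (1.27, adjusted p = 0.0497), with equal sums (1.21, adjusted p = 0.0414), with centring by gene span (1.06, adjusted p = 0.0341), without WT library 3 (1.46, adjusted p = 0.0449) and without Aomdv1 library 2 (1.60, adjusted p = 0.0242). PHB2 was called with equal sums (1.01, adjusted p = 0.0438), without WT library 3 (1.22, adjusted p = 0.0389) and without Aomdv1 library 2 (1.25, adjusted p = 0.0474). Under the Aovps1 label both were called without Aomdv1 library 3 (0.94 and 0.77, adjusted p = 0.0278 and 0.0456), and MIC19 in the fit of the 2 groups alone (adjusted p = 0.0288). For MIC19, PHB1 and PHB2 the mutant libraries lay above WT, with the highest value in Aomdv1 library 3. MIC10, MIC26 and MIC60 had values from -0.45 to 0.17. Without WT library 3, MIC60 was called lower under the Aovps1 label (-0.996, adjusted p = 0.0317).

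Genes grouped by name under mitochondrial distribution or the contact sites with the endoplasmic reticulum numbered 7, of which 0 were called. The grouping does not give the membrane or the step in which each protein acts. GEM1, a GTPase of the outer membrane, was at 0.53 under the Aomdv1 label and 1.18 under the Aovps1 label (adjusted p = 0.113). Under the Aovps1 label GEM1 was called without WT library 3 (1.54, adjusted p = 0.0381) and without Aomdv1 library 3 (adjusted p = 0.0471). The fit of the 2 groups alone also called it (adjusted p = 0.0452). MDM34, an outer membrane subunit of the contact site complex, was at -0.93 and -1.02 (adjusted p = 0.391 and 0.268). MDM10, MDM12, MDM31, MDM33 and MMM1 had log2 fold changes from -0.11 to 0.42. No partner with a named role had a change as large as that of MTP18 in either mutant.

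**Figure D4:**
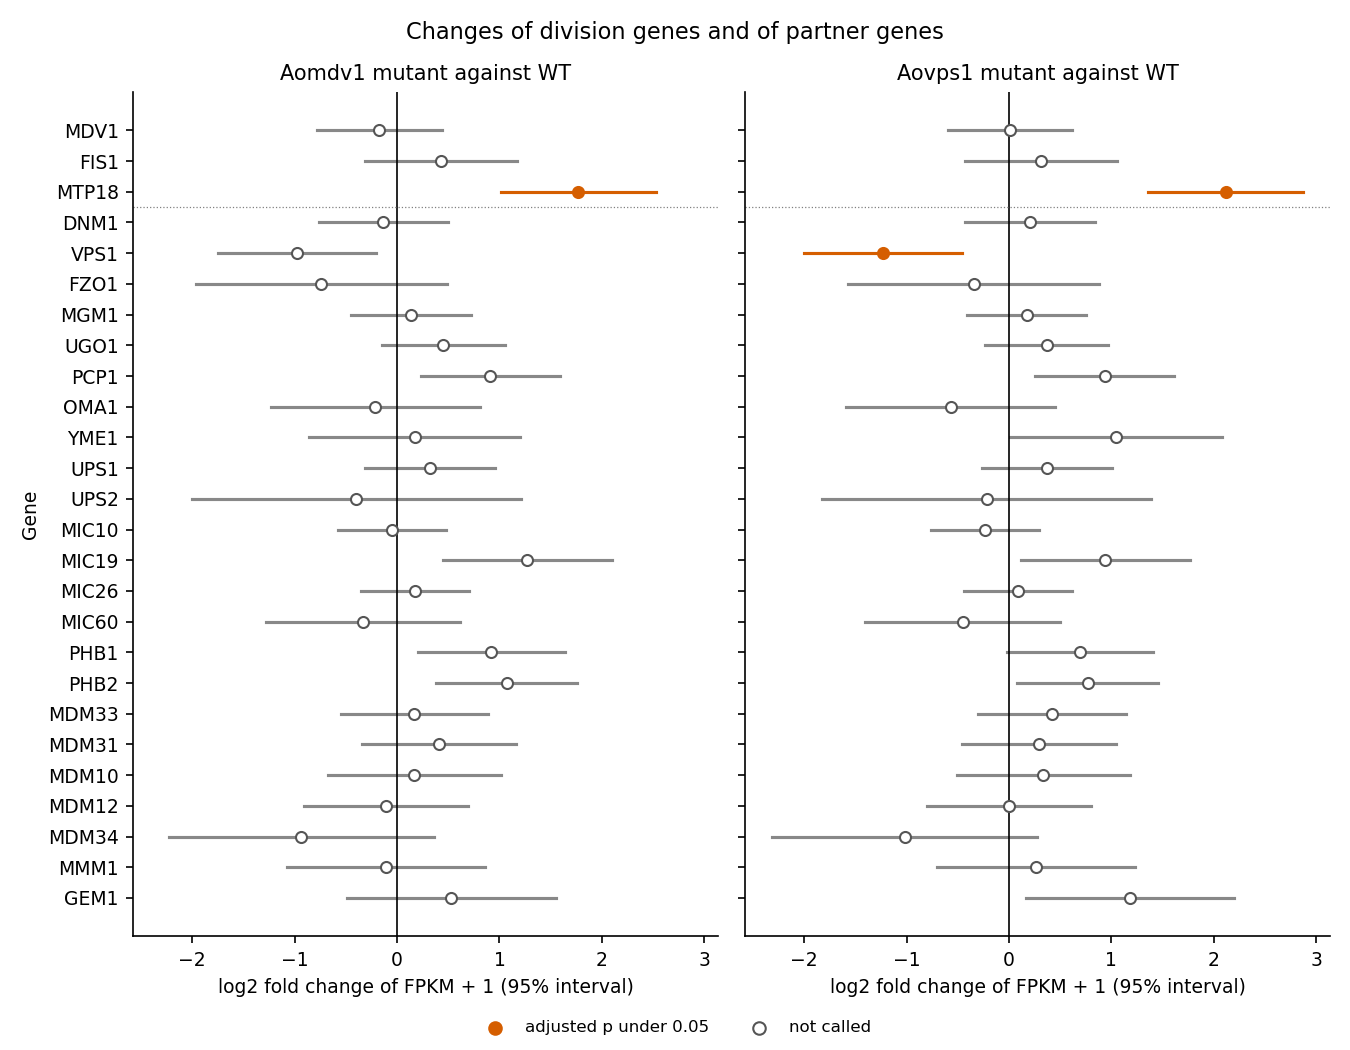
Log2 fold change of FPKM + 1 against WT with its 95% interval (x axis) for MDV1, FIS1, MTP18 and 23 partner genes (y axis), under the Aomdv1 label (left) and the Aovps1 label (right). Filled points have an adjusted p under 0.05: MTP18 in both panels (1.77 and 2.12) and VPS1 on the right (-1.23).

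The loci beside each gene on its scaffold were read for changes shared by the region. Of the 12 loci nearest to MDV1, FIS1 and MTP18, 2 on each side, 0 were called under the Aomdv1 label and all 12 overlapped with WT. Under the Aovps1 label 1 was called, and 8 lay above and 1 below WT without overlap, in a comparison in which 13.8% of all loci were called and 33% lay above and 13% below WT without overlap. Next to MTP18, at a gap of 792 bp, ATP19, a small subunit of the ATP synthase, had log2 fold changes of 0.26 (adjusted p = 0.637) and -0.09 (adjusted p = 0.854). On the other side, at a gap of 991 bp, the chitin synthase gene AOL_s00079g31 had 14.1 to 24.9 FPKM in WT, 17.8 to 40 under the Aomdv1 label and 46.6 to 58.5 under the Aovps1 label. It was the locus called, with a rise of 1.28 (adjusted p = 0.0417, limma), and its change under the Aomdv1 label was 0.35. That call was lost with centring by gene span (0.82, adjusted p = 0.207), with median-ratio scaling (0.93, adjusted p = 0.0915) and with quantile scaling (1.02, adjusted p = 0.0737). It was also lost without WT library 1 (1.38, adjusted p = 0.0791), WT library 2 (1.04, adjusted p = 0.164), or Aovps1 library 1, 2 or 3 (1.34, 1.33 and 1.18, adjusted p = 0.12, 0.109 and 0.164).

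The neighbours of FIS1 include spc24, a kinetochore gene 447 bp away, at 5.22 to 17 FPKM in WT, 10.2 to 42.4 under the Aomdv1 label and 22.5 to 31.3 under the Aovps1 label (0.94 and 1.33, adjusted p = 0.336 and 0.124). Beside MDV1, bcp1 at a gap of 697 bp had 13.3 to 19.1 FPKM in WT, 14.1 to 29 under the Aomdv1 label and 11.7 to 21.8 under the Aovps1 label. The next locus on the other side with a locus tag, similar to the phosphatidylinositol 4-phosphate 5-kinase its3, was nearly silent in Aomdv1 library 3 (0.07 FPKM) and at 7.53 to 25.9 FPKM elsewhere. Neither was called in any comparison. MDV1 itself had 82.5 FPKM in that library.

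Likeness of pattern was described by Pearson's r of log2(FPKM + 1) over the 9 libraries, against the 6259 loci with an annotated function and a mean of at least 5 FPKM. The points share libraries, depth and gene-span deviations, and the loci were chosen for their likeness, so r is a description only. It also takes in the difference between WT and the mutants, which is large for MTP18. Likeness within a group was not tested. Among the genes themselves, MDV1 and FIS1 had r = 0.02, MDV1 and MTP18 -0.001, and FIS1 and MTP18 0.28. MDV1 was more like DNM1 (0.78) than like either of them. MTP18 and VPS1 had r = -0.77.

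The loci most like MTP18 were AOL_s00054g152 (r = 0.99), similar to the ribosome biogenesis ATPase RIX7, with means of 45.8, 193 and 246 FPKM in WT and under the Aomdv1 and Aovps1 labels. AOL_s00188g296 (0.99), similar to a xylanase, had means of 35.2, 77.3 and 92.8 FPKM, and AOL_s00004g632 (0.98), a glucokinase, had 73.7, 140 and 178. AOL_s00079g134 (0.98), with a GTPase domain, and AOL_s00097g439 (0.98), with a rhamnan synthesis domain, also had their lowest means in WT. Opposite to MTP18 ran AOL_s00043g281 (-0.98), a putative oxidoreductase at means of 93.5, 5.47 and 1.93 FPKM, AOL_s00173g83 (-0.98), a glucanosyltransferase similar to GAS5, and AOL_s00054g872 (-0.975), an ABC protein. None of these 8 loci is annotated to mitochondrial division.

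MDV1 was most like AOL_s00007g576 (UTP22, r = 0.93), AOL_s00006g431 (a ribonuclease P subunit, 0.92), AOL_s00215g800 (ribosomal protein L26, 0.91), AOL_s00007g550 (IMP4, 0.91) and AOL_s00043g603 (a zinc-finger locus, 0.90). It ran opposite to AOL_s00006g152 (cofilin, -0.84), AOL_s00215g629 (a FUN14 family locus, -0.80) and AOL_s00078g359 (a mechanosensitive channel, -0.79). FIS1 was most like AOL_s00097g186 (the syntaxin fsv1, 0.96), AOL_s00215g844 (sorting nexin-41, 0.95), AOL_s00112g22 (a putative metallophosphoesterase, 0.94), AOL_s00112g107 (the receptor of the signal recognition particle, 0.94) and AOL_s00043g70 (brr6, 0.93). It ran opposite to AOL_s00006g229 (-0.91), AOL_s00043g449 (-0.905) and AOL_s00215g164 (-0.895). That these lists share no locus follows from the low r between the 3 genes and is no further result.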

How the data were processed

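RNA-seq of hyphae was deposited as 1 table. The authors deposited FPKM rounded to 2 decimals for 9 libraries, per the file headers; how reads were aligned and counted is not given in the sources used here. Each column was matched to a sample by name, and 0 columns belonged to other samples. Coordinates of all 11144 loci with a locus tag equal those of RefSeq assembly AOL24927 1.0. Depth was estimated from the steps of low values. Only 66.9 to 70.6% of these lay within 0.1 of a whole fragment, so no count test was run.

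Values were analysed as log2(FPKM + 1), which understates changes of low genes. The 10318 loci that reached 1 FPKM in 3 or more libraries entered 1 limma-trend fit of all 9 libraries (limma 3.58.1, R 4.3.3, two-sided, Benjamini-Hochberg over 10318 loci, threshold 0.05). On simulated data for the Aomdv1 and Aovps1 comparisons with WT, 44 and 37% of loci changed by 2 on the log2 scale were recovered, and 0 and 2% of those changed by 1. Each simulation changed 100 loci by 2 and 100 by 1, fewer than the 1015 and 1426 called in the real comparisons. The adjustment is then stricter, so these shares are not the power of the real comparisons. Named loci are the 3 genes, search-word matches, the 2 nearest loci per side, and the 5 most like and 3 most unlike patterns; partners below the threshold were named after their values were seen. The members, lists and tests were chosen with earlier results of these data known. Alternatives were other pseudocounts, filters, scalings and fits, a replicate block and leaving out each library.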

Additional observations from a re-analysis of the deposited data

How the results depend on the processing

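MTP18 kept its direction in every setting tried. Against WT its rise without single libraries was 1.47 to 2.03 under the Aomdv1 label (adjusted p 0.00488 to 0.0387) and 1.82 to 2.38 under the Aovps1 label (0.00153 to 0.0191). The fit of the 2 groups alone gave the same 1.77 under the Aomdv1 label with an adjusted p of 0.0532. The fit of all 9 libraries pools the spread of 3 groups, among them the Aovps1 libraries, where the coefficient of variation of MTP18 was 2.19%. What this does to the adjusted p was not tested.

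MDV1 under the Aovps1 label against WT changed sign to -0.35 with median-ratio scaling, -0.19 with quantile scaling and -0.31 with centring by gene span. It ranged from -0.13 to 0.12 without single libraries. Between the mutants MDV1 was -0.0131 with median-ratio scaling and -0.10 with centring by gene span, and -0.00313 to 0.31 without single libraries. Under the Aomdv1 label against WT it was -0.29 to 0.0167 without single libraries. FIS1 under the Aovps1 label against WT was -0.052 with median-ratio scaling, and between the mutants -0.24 to 0.087 without single libraries. The log2 ratio of MTP18 to DNM1 between the mutants was -0.0833 to 0.17 without single libraries. The cause of these sign changes was not tested, and none of the values passed the threshold.

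The number of loci called against WT was 508 (Aomdv1 label) and 2483 (Aovps1 label) in fits of the 2 groups alone, against 1015 and 1426. Without single libraries it was 515 to 1392 and 586 to 2580; the lowest came without WT library 2 and the highest without WT library 3 and Aomdv1 library 3, in that order. Without WT library 1 it was 627 and 839, and without 1 Aovps1 library 626 to 704 under the Aovps1 label. Between the mutants 1 locus was called with no filter, 1 with median-ratio scaling and 0 to 24 without single libraries. Median-ratio scaling moved the split of higher against lower calls from 888 and 538 to 526 and 753 under the Aovps1 label, and from 580 and 435 to 495 and 545 under the Aomdv1 label. Quantile scaling gave 663 and 704, and centring by gene span 576 and 834, under the Aovps1 label. The setting of equal sums and the centring by gene span were chosen after seeing the data.

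Deviations of libraries with the same replicate number had r from -0.283 to 0.387 over the 9 pairs. Pairs with unlike numbers had r from -0.275 to 0.278. The ranges overlap and the highest r, between WT library 2 and Aomdv1 library 2, is a pair of the same number. These values therefore do not decide whether the numbers pair the samples. With the replicate block 894, 1178 and 0 loci were called in the 3 comparisons, and MTP18 had adjusted p values of 0.0163 and 0.00657.

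Counting error was below the spread between libraries for these genes, except for MTP18 under the Aovps1 label, where it was 2.43 to 2.45% beside a coefficient of variation of 2.19%. Gene spans in place of transcript lengths limit the comparison of levels between genes.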

Other observations

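The words searched also matched 17 loci without a role in the groups above, of which 11 were tested and 0 were called against WT. GEP4 (AOL_s00054g427), a mitochondrial phosphatase that acts in cardiolipin synthesis in S. cerevisiae, had 6.66, 9.96 and 20.5 FPKM in WT, 34.3, 27.7 and 26 under the Aomdv1 label and 26.6, 27.4 and 33.2 under the Aovps1 label. All 6 mutant libraries lay above WT, with log2 fold changes of 1.31 (adjusted p = 0.0606, limma) and 1.30 (adjusted p = 0.0505). Without WT library 3, GEP4 was called under both labels (1.72 and 1.71, adjusted p = 0.00679 and 0.00588). Under the Aovps1 label it was also called without Aomdv1 library 3 (adjusted p = 0.0307) and in the fit of the 2 groups alone (adjusted p = 0.044). Equal sums (adjusted p = 0.0451) and a filter at mean FPKM 5 (adjusted p = 0.0489) called it there too. The mgm101 locus AOL_s00043g172, named for maintenance of the mitochondrial genome, had log2 fold changes of 0.89 (adjusted p = 0.201) and 1.17 (adjusted p = 0.0725). Without WT library 3 it was called under both labels (1.26 and 1.54, adjusted p = 0.0403 and 0.015). Without Aomdv1 library 3 it was called under the Aovps1 label (adjusted p = 0.0481).

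Further dynamin-like loci differed widely in level. AOL_s00043g720, similar to Vps1 of Schizosaccharomyces pombe, was at 24.3 to 50.4 FPKM. Similar to Vps1 of S. cerevisiae were AOL_s00004g65, at 2.32 to 7.74 FPKM, AOL_s00078g426, at 0.03 to 0.67, and AOL_s00006g441, at 0 to 0.03. AOL_s00080g223, similar to DNM1 of S. cerevisiae, was at 0.05 to 0.51 FPKM in 8 libraries and at 3.25 in WT library 3. AOL_s00210g344, also similar to DNM1, was at 12.7 FPKM in WT library 3 and at 1.05 to 4.15 in the others. These dynamin-like loci were described after their values were seen.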
